A study of Mus musculus with 12 samples.

Results

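The collagen chains of the developing molar were described across genotypes of the transcription factor gene Nfic. The members were all rows of the deposited expression table whose symbol is Col, a number, the letter a and a number, without Col9a1, Col9a2, Col9a3 and Col17a1. This rule found 39 genes of 25899 in the table. RNA was taken at postnatal day 4 from C57BL/6 mice, from the apical end of the germ of the first lower molar. The 6 Nfic-/- libraries carry 2 mutant alleles, and the 6 littermate controls are Nfic+/-, so the controls also carry a mutant allele and no wild-type library is part of the comparison. Libraries of both genotypes are numbered 5 to 10, and equal numbers were read as littermate pairs. The labels do not describe how the Nfic allele was made, or whether a library holds the germs of 1 mouse or several.

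Collagens are triple-helical proteins of the extracellular matrix whose chains repeat the unit Gly-X-Y. Fibrillar collagens bundle into the banded fibres that make up most of the organic matrix of dentin and bone. Type IV chains form the sheet of the basement membrane, type VI chains form beaded filaments around cells, and other types decorate fibrils, anchor epithelium or stay in the cell membrane. In a molar germ, odontoblasts lay down type I collagen as predentin, and the surrounding follicle and papilla make a softer matrix richer in type III and type VI. NFIC belongs to the nuclear factor I family, and mice that lack it are known for molars with missing or short roots.

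Each library held an estimated 70.2 to 96.4 M reads, from the values of genes with no reads and their GENCODE M21 exon lengths. Nfic itself stood at 16.8 ± 4.42 RPKM (reads per kilobase of gene per M reads; SD, n = 6) in Nfic+/- and 11.4 ± 3.02 (SD, n = 6) in Nfic-/-. The log2 difference was -0.52 (SE 0.178), 6 of 6 pairs were lower for Nfic, and limma gave an adjusted p of 0.934, so reads in the gene did not separate the genotypes past the threshold. The table gives 1 value per gene and cannot show which part of Nfic was read. Libraries 8 and 9 of both genotypes carried intestinal transcripts: the 6 intestinal markers summed to 106 to 252 RPKM there and to at most 0.414 RPKM in the other libraries. The odontoblast, dental epithelium, ameloblast and dental mesenchyme markers were present in all 12 libraries.

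Type I collagen dominated the set. In Nfic+/- libraries Col1a1 averaged 2240 ± 471 RPKM and Col1a2 713 ± 81.8 RPKM (SD, n = 6), followed by Col3a1 with 150 ± 59.1 and Col11a2 with 102 ± 29.6. These 4 chains were the ones above 100 RPKM in Nfic+/-, and 20 of 39 chains were above 10 RPKM. All 39 chains together took an estimated 3.02% to 4.42% of the reads assigned to genes in Nfic+/- (median 3.63%). In Nfic-/- they took 1.69% to 3.59% (median 2.63%). Reads of a gene were estimated as its RPKM times its GENCODE M21 exon length, which may differ from the length behind the deposited values. Col1a1 and Col1a2 alone took 2.32% to 3.73% in Nfic+/- and 1.44% to 2.97% in Nfic-/-. The ranges of the genotypes overlapped for both shares. A germ with fewer collagen-producing cells and one with less collagen RNA per cell give the same value in such bulk RNA.

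**Figure D1:**
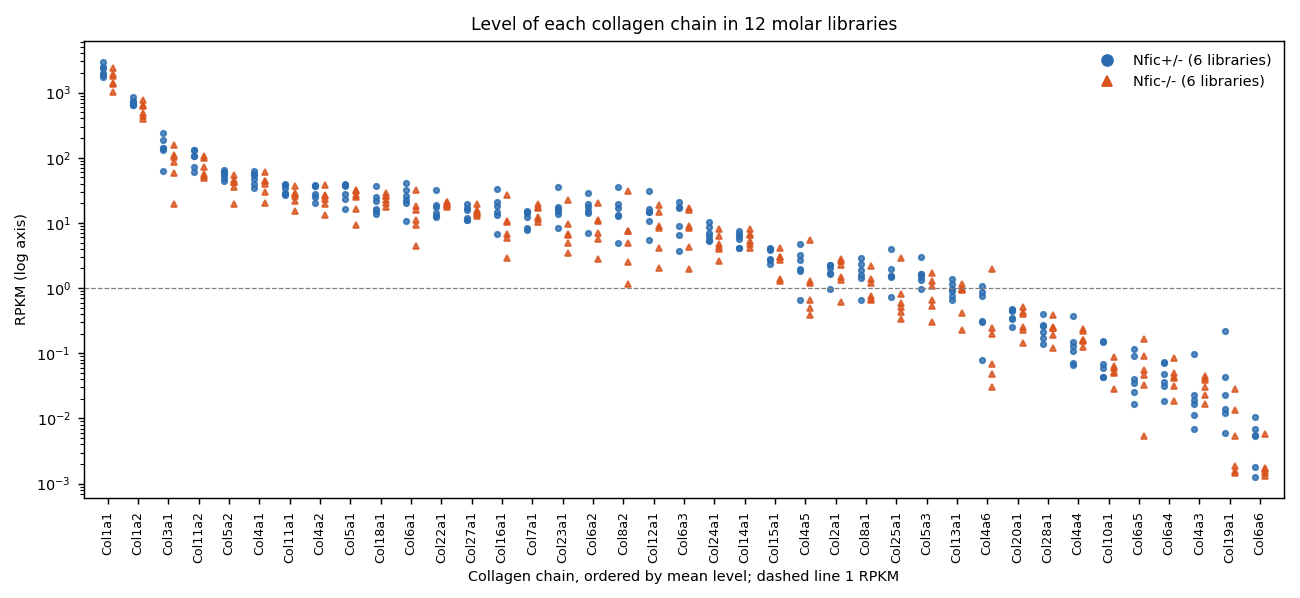
Level of each of the 39 collagen chains in RPKM on a log axis, ordered by mean level, with 1 point per library (circles Nfic+/-, triangles Nfic-/-, 6 libraries each) and a dashed line at 1 RPKM. Col1a1 and Col1a2 sit above all other chains, 28 chains average 1 RPKM or more, and the genotypes overlap for each of those 28.

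The coding sequences show the structural classes behind these levels. Runs of glycine codons repeating at the start of each triplet were counted in GENCODE transcripts, with a minimum run of 5 triplets. In 9 of the 11 fibrillar chains the longest uninterrupted run was 337 to 344 triplets, with 338 in Col1a1, 339 in Col1a2 and 344 in Col3a1. Col24a1 and Col27a1, fibrillar chains known for a shorter helix, had 216 and 217. The type IV chains had as many repeats in all, 425 to 444 triplets, but broken into 22 to 27 runs with the longest between 39 and 66. Col7a1, the anchoring fibril chain, had 471 triplets in 20 runs.

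None of the 28 chains tested passed the threshold between genotypes. These 28 averaged at least 1 RPKM over all libraries, and limma was fitted to log2(RPKM + 1) of all 12094 genes that did so. Across those genes 0 (0%) had an adjusted p under 0.05, and the smallest adjusted p was 0.934, among members as among all genes. At an unadjusted p under 0.05, 9 members were lower in Nfic-/- and 0 were higher, 32.1% of the members against a background of 2.72% of all genes lower and 2.62% higher. The 9 were Col23a1, Col1a2, Col5a3, Col5a2, Col1a1, Col6a2, Col24a1, Col25a1 and Col8a2. Of these, Col5a3 and Col25a1 averaged under 1 RPKM in Nfic-/- (0.925 and 0.933). They reached the filter through Nfic+/- (1.67 and 1.86), so their lower values are tied to how they were selected. Both are also among the chains lower in 6 of 6 pairs below.

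The direction was shared by most members. The difference was below 0 in 23 of 28 chains, 82.1% against 51.1% of all genes. The members' median log2 difference was -0.45, beside -0.0028 for all genes tested. Their median SE was 0.214 against 0.113 for all genes, so collagen chains also varied more between libraries. Lower in 6 of 6 pairs were 8 of 28 chains (28.6%) against 2.68% of all genes. They were Col1a2, Col5a2, Col5a3, Col16a1, Col23a1, Col6a2, Col8a2 and Col25a1. In pair 5 the log2 difference was close to 0 for Col1a2 (-0.003), Col5a2 (-0.008) and Col6a2 (-0.006). For Col5a3 it was close to 0 in pair 7 (-0.024). The genotypes did not overlap for 0 of 28 chains and for 0.157% of all genes (19 of 12094). In libraries 5 to 7 the median was -0.49 with 23 of 28 chains below 0, and in libraries 8 to 10 it was -0.46 with 24 of 28. Without libraries 8 and 9, which hold the intestinal transcripts, it was -0.47 with 24 of 28.

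With the pair number as a block in the fit, 16 members (57.1%) were lower at an unadjusted p under 0.05, where 5.03% of all genes were, and no adjusted p passed. Weighting libraries by their variability gave 17 members lower (60.7%) where 9.71% of all genes were. The count of 9 chains at an unadjusted p under 0.05 depended on single libraries, and so did the share of all genes. It was 2 of 28 without Nfic-/- library 6 (2.85% of all genes in either direction) and 2 without Nfic+/- library 10 (2.64%). It was 4 without Nfic-/- library 5 (3% of all genes) and 4 without Nfic+/- library 9 (4.2%), but 16 without Nfic+/- library 5 (8.89%).

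**Figure D2:**
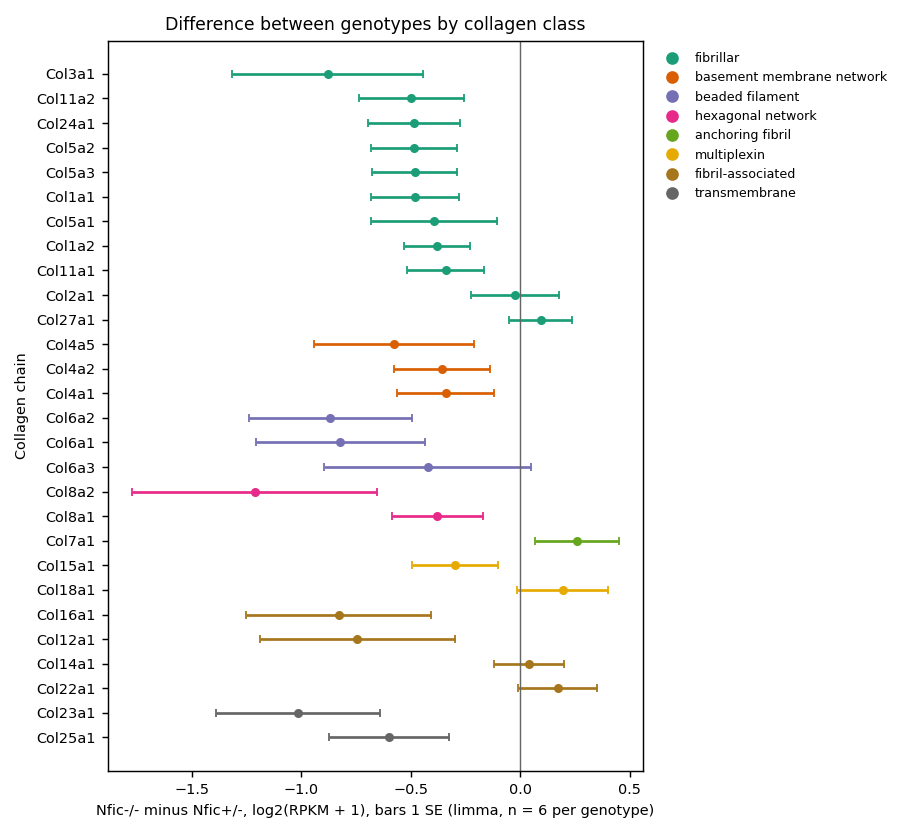
Difference between genotypes for the 28 tested chains as Nfic-/- minus Nfic+/- on the log2(RPKM + 1) scale, grouped by structural class, with bars of 1 SE from limma (6 libraries per genotype). Of the 28 points, 23 lie left of 0, from Col8a2 at -1.21 to Col7a1 at 0.26 on the right.

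Fibrillar chains formed the largest class, and 10 of its 11 members were below 0 (median -0.48, 5 at an unadjusted p under 0.05, 3 lower in 6 of 6 pairs). Col1a1 encodes the chain present in excess in type I collagen trimers. It ran from 1720 to 2990 RPKM in Nfic+/- (median 2190) and from 1020 to 2340 RPKM in Nfic-/- (median 1590). Of the 6 Nfic-/- libraries, 3 lay below the lowest Nfic+/- library: numbers 6, 7 and 10. The log2 difference was -0.48 (SE 0.201, limma adjusted p = 0.934).

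Col1a2, the partner chain of type I collagen, ran from 640 to 855 RPKM in Nfic+/- (median 688) and from 398 to 755 in Nfic-/- (median 554). Libraries 6, 7, 8 and 10 of Nfic-/- lay below the lowest Nfic+/- library, 4 of 6. Its log2 difference was -0.38 (SE 0.152, limma adjusted p = 0.934), lower in 6 of 6 pairs, with pair 5 at -0.003. Within libraries 5 to 7 the Col1a2 difference was -0.43 and within libraries 8 to 10 it was -0.33. The corresponding Col1a1 values were -0.51 and -0.45.

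Col3a1 (chr1:45311538-45349706, GRCm38) encodes type III collagen, the chain of soft, extensible tissue. It ran from 62.1 to 237 RPKM in Nfic+/- (median 140) and from 19.2 to 158 in Nfic-/- (median 94.1). The lowest value was that of Nfic-/- library 6, and Nfic+/- library 5 at 62.1 was also far under its own group. Its log2 difference was -0.88 (SE 0.435, limma adjusted p = 0.945), and -0.50 without Nfic-/- library 6. Col5a2, which nucleates type I fibrils with Col5a1, lies 24614 bases from Col3a1 on the opposite strand. Col5a2 was more even, from 43.3 to 64.7 RPKM in Nfic+/- (median 56.5) and from 19.7 to 54.9 in Nfic-/- (median 42.8). Without Nfic-/- library 6 the Col5a2 difference was -0.30. With that library Col5a2 differed by -0.49 (SE 0.195, limma adjusted p = 0.934), with 6 of 6 pairs lower and pair 5 at -0.008.

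The other type V and type XI chains varied in the same direction. Col5a1 ran from 16.4 to 39.2 RPKM in Nfic+/- (median 31.9) and from 9.19 to 32 in Nfic-/- (median 25.7), a difference of -0.39 (SE 0.288), lower in 3 of 6 pairs, and -0.165 without Nfic-/- library 6. Col5a3, a minor type V chain, ran from 0.965 to 2.96 RPKM (median 1.55) in Nfic+/- and from 0.301 to 1.71 (median 0.861) in Nfic-/-. Its difference was -0.48 (SE 0.194, limma adjusted p = 0.934). Col11a1 and Col11a2 belong to the type best known from cartilage. Col11a2 ran from 60.4 to 133 RPKM in Nfic+/- (median 107) and from 48.1 to 108 in Nfic-/- (median 64.3), a difference of -0.50 (SE 0.239). Col11a1 ran from 26.6 to 39.1 (median 31.6) and from 15.1 to 36.6 (median 26.9), a difference of -0.34 (SE 0.175) and -0.20 without Nfic-/- library 6.

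Cartilage markers were read beside these chains. Of the 7 listed, Matn1, Matn3 and Comp stayed under 0.1 RPKM in all 12 libraries and Acan at 0.568 or less. The 3 that were tested had a median difference of -0.72: Sox9 averaged 13.1 RPKM in both genotypes, Hapln1 4.59 RPKM in Nfic+/- and 2.24 in Nfic-/-, and Cnmd 1.9 and 0.603, the latter 2 lower in 6 of 6 pairs with an adjusted p of 0.934. Cnmd reached the filter of 1 RPKM through Nfic+/-, so its lower values are tied to how it was selected. The median of the 3 is tied to this too, with Sox9 at 0.01, Hapln1 at -0.72 and Cnmd at -0.79. The list summed to 10.2 to 33.9 RPKM in Nfic+/- and 9.54 to 23.7 in Nfic-/-. Its part in the type XI values was not tested. Col2a1, the main cartilage collagen, averaged 1.80 ± 0.489 RPKM in Nfic+/- and 1.83 ± 0.836 in Nfic-/- (SD, n = 6), a difference of -0.02 (SE 0.201). Col24a1, a fibrillar chain known from bone and developing eye, ran from 5.20 to 10.4 RPKM in Nfic+/- (median 6.69) and from 2.57 to 7.95 in Nfic-/- (median 4.51). Its difference was -0.49 (SE 0.209, limma adjusted p = 0.934), with -0.81 among libraries 5 to 7 but -0.16 among 8 to 10. Col27a1 was the fibrillar chain above 0, at 14.3 ± 3.47 against 15.1 ± 2.40 RPKM (SD, n = 6) and a difference of 0.09 (SE 0.143).

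**Figure D3:**
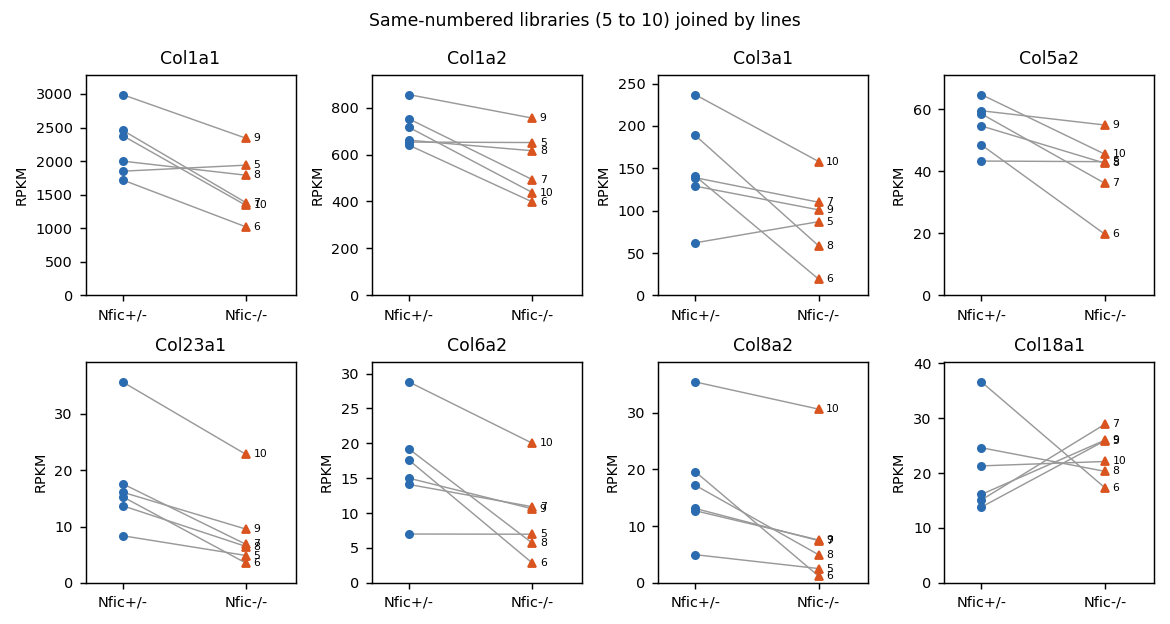
Level in RPKM of 8 chains in Nfic+/- (circles) and Nfic-/- (triangles) libraries, with lines joining libraries of equal number from 5 to 10 and each axis starting at 0. Col1a2, Col5a2, Col23a1, Col6a2 and Col8a2 go down along 6 of 6 lines, Col1a1 and Col3a1 along 5, and Col18a1 goes down along 2. The line of pair 5 is nearly flat for Col1a2, Col5a2 and Col6a2.

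The lowest difference of all 28 chains was that of Col8a2. Col8a2, named here after its values were seen, encodes a short chain of the hexagonal network known from the corneal Descemet membrane. It ran from 4.95 to 35.4 RPKM in Nfic+/- (median 15.2) and from 1.16 to 30.6 in Nfic-/- (median 6.18). In Nfic-/-, 5 of 6 libraries were at 7.54 or less, and library 10 was at 30.6. The log2 difference was -1.21 (SE 0.558, limma adjusted p = 0.934), lower in 6 of 6 pairs. It was -1.65 without Nfic-/- library 10 and -0.88 without Nfic-/- library 6. The other chain of that network, Col8a1, differed by -0.38 (SE 0.208).

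Both transmembrane chains tested were below 0, but Col25a1 reached the filter through Nfic+/-. The third such chain, Col13a1, was not tested and was lower in 3 of 6 pairs. Col23a1, a membrane-bound collagen, ran from 8.36 to 35.7 RPKM in Nfic+/- (median 15.7) and from 3.48 to 22.8 in Nfic-/- (median 6.63). In Nfic-/-, 4 of 6 libraries lay below the lowest Nfic+/- value, and library 10 of each genotype was the highest of its group. Its difference was -1.01 (SE 0.373, limma adjusted p = 0.934), -1.26 in libraries 5 to 7 and -0.77 in libraries 8 to 10. Col25a1, known from motor nerve and muscle development, ran from 0.728 to 3.94 RPKM in Nfic+/- (median 1.52) and from 0.331 to 2.91 in Nfic-/- (median 0.553). The Col25a1 difference was -0.60 (SE 0.274, limma adjusted p = 0.934).

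Type VI chains make the beaded filaments around cells, and the 3 tested were below 0 (median -0.82). Col6a1 ran from 10.6 to 41.6 RPKM in Nfic+/- (median 24.1) and from 4.45 to 31.6 in Nfic-/- (median 13.5), a difference of -0.82 (SE 0.385, limma adjusted p = 0.936). Col6a2, its neighbour 85161 bases away on chromosome 10, ran from 6.99 to 28.8 (median 16.3) and from 2.82 to 20 (median 8.77). The Col6a2 difference was -0.87 (SE 0.371, limma adjusted p = 0.934), lower in 6 of 6 pairs, with pair 5 at -0.006. Pairs 6 and 8 held the largest differences, -2.313 and -1.671 for Col6a1 and -2.282 and -1.595 for Col6a2. Without Nfic-/- library 6 the differences were -0.552 for Col6a1 and -0.615 for Col6a2. For Col6a3, the long chain that completes the trimer, the difference was -0.42 (SE 0.472) and 3 of 6 pairs were lower. Among fibril-associated chains, Col16a1 differed by -0.83 (SE 0.421, lower in 6 of 6 pairs) and Col12a1 by -0.74 (SE 0.444). Col16a1 was at -2.327 in pair 6 and -1.472 in pair 8. Col14a1, of the same class, differed by 0.04 (SE 0.161).

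The 3 basement membrane chains tested were below 0, with a median of -0.36. Col4a1 ran from 34.5 to 61.7 RPKM in Nfic+/- (median 51) and from 20.5 to 60.8 in Nfic-/- (median 41.6), a difference of -0.34 (SE 0.221, limma adjusted p = 1). Col4a2 ran from 20 to 38.7 (median 32.2) and from 13.1 to 37.6 (median 24.5), a difference of -0.36 (SE 0.22). For both chains the highest Nfic-/- library, number 7, reached the level of the highest Nfic+/- libraries, and library 6 was lowest. Without library 6 the differences were -0.17 for Col4a1 and -0.20 for Col4a2. The 2 genes sit head to head on chromosome 8, Col4a1 at chr8:11198423-11312826 on the minus strand and Col4a2 at chr8:11312805-11449287 on the plus strand, with annotated ends overlapping by 22 bases. Col4a5 differed by -0.58 (SE 0.364). Endothelial markers, whose cells rest on such a membrane, summed to 18.7 to 36.2 RPKM in Nfic+/- and 8.57 to 30.3 in Nfic-/- with 5 of 5 below 0, and their part in the type IV values was not tested.

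Above 0 were 5 of 28 chains, and 0 of them had an unadjusted p under 0.05. Col7a1, which anchors epithelium to the matrix, stood at 12.2 ± 3.23 RPKM in Nfic+/- and 14.7 ± 3.86 in Nfic-/- (SD, n = 6), a difference of 0.26 (SE 0.192). Col18a1, a basement membrane chain whose end fragment is endostatin, ran from 13.8 to 36.6 RPKM in Nfic+/- (median 18.7) and from 17.3 to 28.9 in Nfic-/- (median 24). Its difference was 0.19 (SE 0.206). Col22a1, known from tissue junctions, ran from 12.5 to 32.3 in Nfic+/- (median 15.8) and from 17.8 to 21 in Nfic-/- (median 19.2), a difference of 0.17 (SE 0.181). The highest value of both Col18a1 and Col22a1 was in Nfic+/- library 6. Without it the difference of Col18a1 was 0.36 (limma adjusted p = 0.696) and that of Col22a1 0.35 (limma adjusted p = 0.492), both then under an unadjusted p of 0.05, as they were with library weights (0.44 and 0.32). Without Nfic+/- library 5 they were 0.09 and 0.10, and without Nfic+/- library 7 0.12 and 0.09. Dental epithelium markers were above 0 in 6 of 6 genes, with summed levels of 1370 to 2100 RPKM in Nfic+/- and 1680 to 2470 in Nfic-/-, and their part in the values of these chains was not tested.

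Promoter sequence was printed for the 5 chains with the lowest differences and, for contrast, the chain with the highest. RefSeq windows on GRCm38.p6, from 250 bases before to 50 after the start, were found for 32 of 39 members, in 34 windows; Col1a1, Col2a1, Col4a3, Col5a2, Col12a1, Col14a1 and Col22a1 had none. NFI proteins are known to bind a palindrome of TTGGC, 5 bases and GCCAA and, more weakly, its core TTGGC. On either strand the palindrome was in 0 of 34 member windows and in 0.0365% of all 32851 windows. The TTGGC core was in 15 of 34 (44.1%) against 46.7% of all windows, CCAAT, which overlaps GCCAA, was in 11 (32.4%) against 37.4%, and TATAAA in 4 (11.8%) against 13.6%. The windows below, 5′ to 3′ and without transcribed bases, are on the plus strand except that of Col6a2. They are those of Col8a2 (chr4:126286544-126286792), Col23a1 (chr11:51289670-51289919), Col3a1 (chr1:45311288-45311537), Col6a2 (chr10:76623631-76623880, the farther upstream of its 2 windows) and Col16a1 (chr4:130047590-130047839), and of Col7a1 (chr9:108953336-108953585), the chain with the highest difference. Capitals mark TTGGC or its complement GCCAA.
Col8a2: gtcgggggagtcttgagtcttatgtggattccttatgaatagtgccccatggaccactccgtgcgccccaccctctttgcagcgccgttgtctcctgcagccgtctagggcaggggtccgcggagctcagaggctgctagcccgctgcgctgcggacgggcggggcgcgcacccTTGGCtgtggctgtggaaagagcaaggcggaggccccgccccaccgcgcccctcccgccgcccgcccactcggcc
Col23a1: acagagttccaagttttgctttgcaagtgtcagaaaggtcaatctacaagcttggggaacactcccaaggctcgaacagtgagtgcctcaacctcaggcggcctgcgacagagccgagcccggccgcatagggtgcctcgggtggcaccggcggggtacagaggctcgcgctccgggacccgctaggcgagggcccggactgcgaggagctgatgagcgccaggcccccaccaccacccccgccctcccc
Col3a1: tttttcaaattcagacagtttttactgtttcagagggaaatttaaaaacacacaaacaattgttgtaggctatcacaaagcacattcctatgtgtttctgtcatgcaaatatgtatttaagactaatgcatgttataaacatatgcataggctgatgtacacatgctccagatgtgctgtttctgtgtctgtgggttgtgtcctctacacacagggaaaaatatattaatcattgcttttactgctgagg
Col6a2: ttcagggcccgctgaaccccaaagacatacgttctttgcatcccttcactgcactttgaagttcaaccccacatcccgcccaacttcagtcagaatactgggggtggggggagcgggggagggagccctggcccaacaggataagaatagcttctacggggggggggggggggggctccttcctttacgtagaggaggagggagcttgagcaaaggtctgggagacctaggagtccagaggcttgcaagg
Col16a1: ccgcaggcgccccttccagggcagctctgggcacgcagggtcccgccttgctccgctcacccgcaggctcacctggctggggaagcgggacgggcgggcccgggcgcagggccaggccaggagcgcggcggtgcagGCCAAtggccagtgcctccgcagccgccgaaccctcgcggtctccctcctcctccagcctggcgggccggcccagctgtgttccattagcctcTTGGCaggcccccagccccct
Col7a1: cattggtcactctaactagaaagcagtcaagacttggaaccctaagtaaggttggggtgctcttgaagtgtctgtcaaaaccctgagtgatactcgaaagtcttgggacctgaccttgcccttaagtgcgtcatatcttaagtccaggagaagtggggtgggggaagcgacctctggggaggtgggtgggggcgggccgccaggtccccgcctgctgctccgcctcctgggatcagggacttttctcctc
The core is present upstream of Col8a2 and Col16a1 and is not among these letters upstream of Col23a1, Col3a1, Col6a2 or Col7a1.

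Library by library, the chains did not all follow the same order. Nfic-/- library 6 was the lowest of all 12 libraries for 22 of 28 chains, where 27.1% of all genes had their lowest value in it. Its summed odontoblast, dental mesenchyme, follicle and ligament, endothelium, smooth muscle and macrophage markers were also the lowest of the 12. Its ameloblast markers summed to 140000 RPKM, second to 142000 in Nfic+/- library 5, in a range of 36000 to 142000 in Nfic+/- and 52800 to 140000 in Nfic-/-. Amelx alone took an estimated 12.7% of its gene reads, where the 12 libraries ran from 3.4% to 13.5%. The part of this make-up in the collagen values was not tested. Nfic+/- library 10 was the highest for 15 of 28 chains, against 21% of all genes. Without Nfic-/- library 6 the members' median difference was -0.31, and without the whole pair 6 it was -0.30.

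Nfic-/- library 10 split the set. It held the highest Nfic-/- value of Col3a1 (158 RPKM), Col6a1 (31.6), Col8a2 (30.6), Col16a1 (27.0) and Col23a1 (22.8), but the second-lowest Nfic-/- value of Col1a1 (1340) and Col1a2 (438). The marker lists divided in the same way there. Follicle and ligament markers (Postn, Fmod, Bgn, Aspn and Tnn) summed to 245 RPKM in that library and to 63.9 to 145 in the other Nfic-/- libraries. Odontoblast markers (Dspp, Dmp1, Phex, Ibsp and Sp7) summed to 416, 438 and 455 RPKM in Nfic-/- libraries 6, 7 and 10, the 3 with the lowest Col1a1, and to 630, 734 and 765 in libraries 5, 8 and 9. In Nfic+/- libraries 5 to 10 the sums were 836, 725, 895, 601, 816 and 751 RPKM. Col1a1 there was at 1850, 1720, 2460, 2000, 2990 and 2380 RPKM. The 2 orders differed in Nfic+/-: library 8 had the lowest sum and library 6 the lowest Col1a1.

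The summed levels of these lists overlapped between genotypes. Odontoblast markers were below 0 in 4 of 5 genes (601 to 895 RPKM summed in Nfic+/-, 416 to 765 in Nfic-/-), dental mesenchyme markers in 4 of 5 (108 to 237 and 77.2 to 217), follicle and ligament markers in 5 of 5 (144 to 276 and 63.9 to 245) and bone markers in 5 of 5 (315 to 715 and 295 to 612). Ibsp among odontoblast markers (0.53) and Dlx2 among mesenchyme markers (0.22) were above 0, and no marker of these lists had an adjusted p under 0.934. Aspn differed by -0.135 but was higher in 4 of 6 pairs and averaged 8.25 RPKM in Nfic+/- and 10.2 in Nfic-/-. Alpl (-0.121) and Spp1 (-0.042) were lower in 3 of 6 pairs. Tnn and Pax9 averaged under 1 RPKM in Nfic-/- (0.609 and 0.996). They reached the filter through Nfic+/- (1.63 and 1.81), so their lower values are tied to that selection. No marker of these 4 lists was under 0.1 RPKM in all libraries, and Sp7 stands in both the odontoblast and the bone list. Macrophage markers were below 0 in 4 of 4 genes (9.61 to 27.8 RPKM summed in Nfic+/-, 5.44 to 28.9 in Nfic-/-; median difference -0.42). Smooth muscle and pericyte markers were below 0 in 2 of the 4 tested (27.5 to 58.6 and 15.1 to 46.7), with Rgs5 at -0.78 and Pdgfrb at -0.72. The part of these cell types in the collagen values was not tested.

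**Figure D4:**
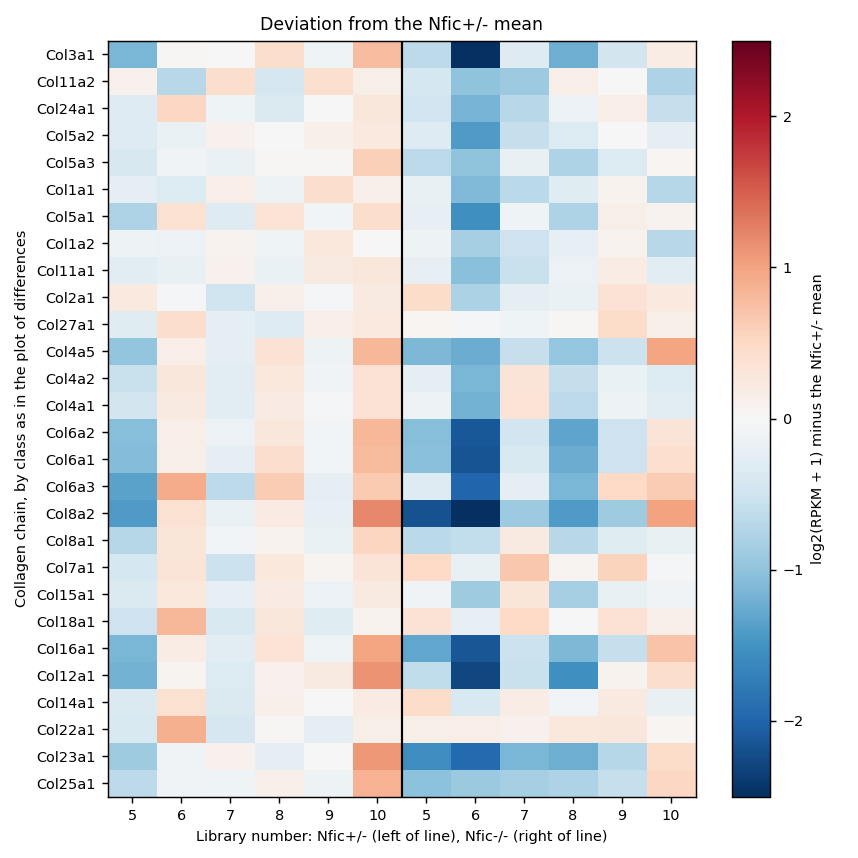
Deviation of each tested chain in each library from its Nfic+/- mean on the log2(RPKM + 1) scale, with blue for lower and red for higher, chains in rows by class and libraries 5 to 10 in columns (Nfic+/- left of the line, Nfic-/- right). Nfic-/- library 6 is the darkest blue column, and Nfic-/- library 10 is red for Col8a2, Col16a1 and Col4a5 while blue for Col1a1, Col1a2 and Col11a2.

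Ratios between chains of the same type hardly depend on how a library is scaled. Folds below are of RPKM, and differences are of log2 of the ratio of RPKM + 1, compared for 7 chain pairs with exact 2-sided permutation tests over all assignments of the library labels, whose smallest possible p is 0.00216. None of the 7 had p under 0.05. Col4a1 to Col4a2 was the most constant: from 1.52 to 1.72 in Nfic+/- and from 1.56 to 1.71 in Nfic-/-, a 1.13-fold range while Col4a1 itself varied 3-fold (difference 0.02 on the log2 scale, exact permutation p = 0.639, adjusted p = 0.684). Col6a1 to Col6a2 varied 1.19-fold while Col6a1 varied 9.34-fold (difference 0.05, exact permutation p = 0.31, adjusted p = 0.542). In these 2 cases the chains are encoded by neighbouring genes. Col4a5 and Col4a6, neighbours 1308 bases apart, were also listed but not compared, because Col4a6 averaged under 1 RPKM. Their ratio was less even, with 5.45 and 1.96 RPKM in Nfic-/- library 10 and 0.502 and 0.0305 in Nfic-/- library 5. A link between gene position and ratio was not tested.

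Other chain pairs were looser. Col1a1 to Col1a2, on different chromosomes, ran from 2.70 to 3.50 in Nfic+/- and from 2.56 to 3.10 in Nfic-/-. This was a 1.37-fold range while Col1a1 varied 2.94-fold. The ratio was lower in 5 of 6 pairs (difference -0.10, exact permutation p = 0.203, adjusted p = 0.475). Col11a1 to Col11a2 varied 1.85-fold, Col5a1 to Col5a2 2.04-fold and Col6a1 to Col6a3 3.01-fold. Col8a1 to Col8a2 varied most, 14.4-fold, from 0.0829 to 0.131 in Nfic+/- and from 0.045 to 0.649 in Nfic-/- (difference 0.84, exact permutation p = 0.128, adjusted p = 0.455).

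**Figure D5:**
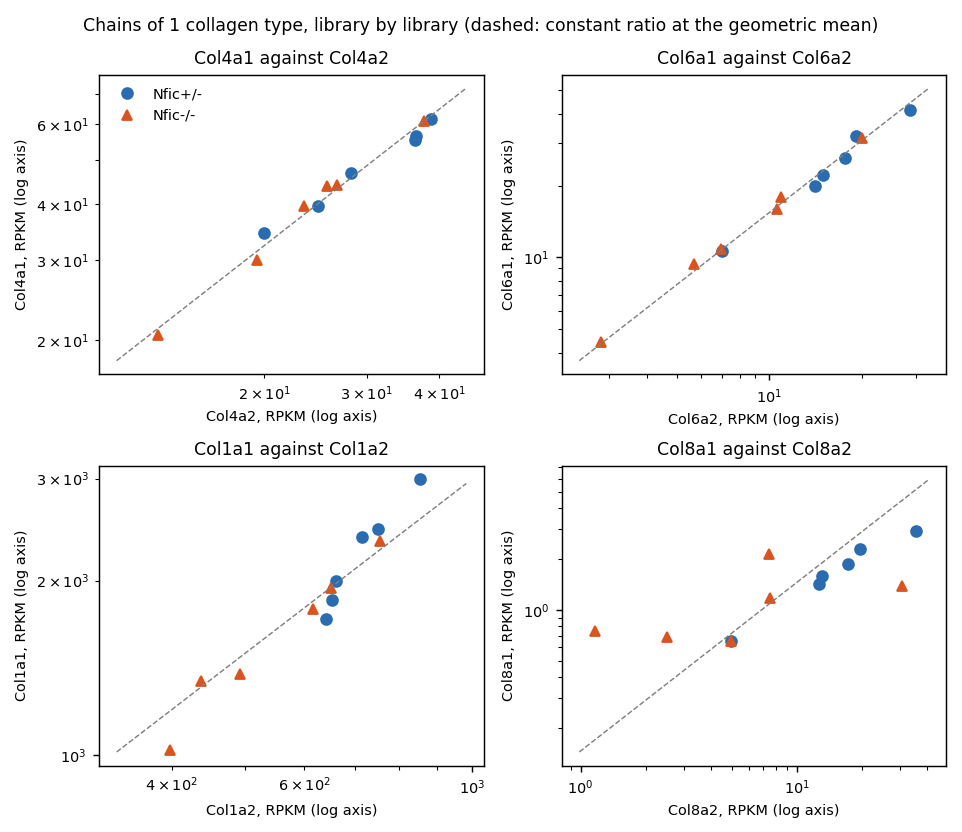
Level of 1 chain against another of its type in each library, in RPKM on log axes, with circles for Nfic+/-, triangles for Nfic-/- and a dashed line of constant ratio. Points of Col4a1 with Col4a2 and of Col6a1 with Col6a2 follow the line over the whole range (1.13-fold and 1.19-fold), while Col8a1 with Col8a2 scatters 14.4-fold.

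Of the 39 chains, 11 averaged under 1 RPKM and were not tested, 8 of them below 0 and 3 above. Col13a1, a transmembrane chain, was the highest at 0.964 ± 0.257 RPKM in Nfic+/- and 0.784 ± 0.371 in Nfic-/- (SD, n = 6). Col4a6, the head-to-head neighbour of Col4a5 on chromosome X with 1308 bases between them, ran from 0.0305 to 1.96 RPKM, and its highest library, Nfic-/- 10, was also the highest for Col4a5 (5.45 RPKM). Col4a3 and Col4a4, the kidney and inner ear chains that lie 71 bases apart on chromosome 1, stayed under 0.1 and 0.4 RPKM. Col10a1, the chain of hypertrophic cartilage, had 7 to 47 reads per library. Col6a4, Col6a5 and Col6a6, neighbours on chromosome 9, reached at most 0.0853, 0.165 and 0.0104 RPKM, and Col19a1 had 0 to 144 reads, with none in 2 libraries. Col20a1 and Col28a1 stayed under 0.6 RPKM.

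Genes that modify, secrete, cut and cross-link collagen were read from a list of 39, of which 38 were found and tested. Of these 27 were below 0 and 11 above (median -0.15), where 51.1% of all genes tested were below 0. None passed the adjusted threshold. At an unadjusted p under 0.05 in limma, 11 of the 38 were lower and 2 higher, against 2.72% and 2.62% of all genes. The genes named next were chosen after their values were seen. Lox, which cross-links fibrils, stood at 35.3 RPKM in Nfic+/- and 23.2 in Nfic-/-, a difference of -0.61 (limma adjusted p = 0.934) and lower in 6 of 6 pairs. Creb3l1, a transcription factor known to drive type I collagen in bone, differed by -0.55 and was lower in 5 of 6 pairs, Pcolce, which helps remove the propeptide, by -0.52, and Adamts2, which removes it at the other end, by -0.50. The 2 higher genes were P4ha2 (0.19), a prolyl hydroxylase subunit, and Plod2 (0.38), a lysyl hydroxylase of the collagen ends. Serpinh1, the collagen chaperone, differed by -0.09.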

How the data were processed

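Total RNA of the apical molar germ was sequenced from 6 Nfic+/- and 6 Nfic-/- libraries, per the labels' protocols; nothing states that same-group libraries come from separate mice beyond the series text on 6 pairs, so p-values measure the spread between these libraries. Reads were aligned with TopHat2 to mm10, per the submitters' processing notes. No source used here names the counter or the annotation. The authors deposited log2 RPKM values for 25899 genes (from -11.1 to 16.7), not the linear RPKM first assumed. Base 2 was settled by whole-read steps: of 6772 values in 2439 low genes, 100% came out whole within 0.02 reads. Genes with no reads carry a floor of 0.9 reads. Depth was estimated at 70.2 to 96.4 M reads from that floor and GENCODE M21 exon lengths, and intervals on reads would cover counting error only.

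Values were turned back to RPKM and fitted as log2(RPKM + 1), a scale that understates the change of low genes, with limma 3.58.1 (trend) in R 4.3.3. The fit held genotype only, for 12094 genes averaging 1 RPKM or more, with Benjamini-Hochberg adjustment over them at 0.05. Identifiers matched GENCODE M21 for 24987 genes and not for 912. The scripts were tested on simulated data. Equal numbers were read as littermate pairs. Deviations of same-numbered libraries from their genotype mean correlated at 0.00502 (pair 6) to 0.802 (pair 10), above 0.1 in 5 of 6. The 2 libraries were each other's closest in the other genotype for 3 of 6 pairs (8, 9 and 10), and not for pairs 5, 6 and 7. The pairing of the latter is thus not borne out by the values. Column headers repeat sample-sheet numbers, so libraries 5 to 7 and 8 to 10 were also read apart, 3 per genotype each.

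Other pseudocounts, filters, scalings, a pair block, library weights and left-out libraries were tried as alternatives. Named with library values were the 12 chains of highest mean level and the 8 with the smallest p, 17 in all; Col8a2, Col16a1 and Col7a1, and the promoters printed, were singled out after their values were seen. The members and lists were chosen with earlier results of these data known. Besides the marker lists named in the results, skeletal muscle (2.77 to 7.4 RPKM summed in Nfic+/-, 3.14 to 37.2 in Nfic-/-, highest in library 9), red blood cell (210 to 471 and 182 to 716) and Schwann and nerve (2.55 to 5.74 and 2.8 to 4.72) lists were read.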

Additional observations from a re-analysis of the deposited data

Results flagged for a closer look

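Col25a1 in Nfic-/- library 10 was at 2.91 RPKM, far above the other 5 Nfic-/- libraries at 0.331 to 0.817. Col4a5 in the same library was at 5.45 RPKM, where the others were at 0.384 to 1.27. These were the 2 values set apart from their group among 56 groups examined; chance sets apart about 1 group in 20.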

How the results depend on the processing

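Over 33 other settings no collagen chain had an adjusted p under 0.05, and 17 genes of all did with library weights, none of them a collagen chain (smallest member adjusted p 0.0506). The number of chains at an unadjusted p under 0.05, 9 in the reported fit, was 3 with no filter on low values, 16 with the replicate block and 21 with library weights (17 of them lower). It was 5 without pair 6, 5 in libraries 8 to 10 only and 5 without libraries 8 and 9, the last chosen after seeing the data. Leaving out 1 library gave 2 to 16. The count over all 12094 genes moved too, from 646 in the reported fit to 981 with the block and 2263 with the weights. The rise in these 2 settings was thus not limited to collagen chains. Over all genes the count was 697 without pair 6, 271 in libraries 8 to 10 only and 324 without libraries 8 and 9. Leaving out 1 library gave 319 to 1249 genes. Chains below 0 numbered 21 to 24 wherever the same 28 were tested, and 17 of 22, 27 of 33 and 31 of 39 with other filters on low values; their median difference ran from -0.547 to -0.295. The Col5a1 to Col5a2 ratio difference changed sign without pair 5 (-0.00712), without pair 7 (-0.0682) and in libraries 8 to 10 only (-0.0841), and Col6a1 to Col6a2 with a pseudocount of 5 (-0.021); the cause was not tested. Without Nfic-/- library 10 the Col8a1 to Col8a2 ratio difference was 1.24, past the threshold. The replicate block raised the count of chains at an unadjusted p under 0.05 to 16, as given above. With it no gene had an adjusted p under 0.05 in limma (smallest 0.0872). Depth limits the chains with a few reads per library, such as Col6a6.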
